A study of Mus musculus with 6 samples.

Results

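The Toll-like receptor genes Tlr1, Tlr2, Tlr3, Tlr4, Tlr5, Tlr6, Tlr7, Tlr8, Tlr9 and Tlr13 were followed in mouse macrophages, 10 genes among 46603 in the deposited tables, chosen by symbol. The cells were bone marrow-derived macrophages (BMDM) of C57BL/6/J mice aged 7 weeks, grown with 20% L929-conditioned medium, a source of macrophage growth factor. Also given for all 6 libraries were 10% serum, culture day 6, 6 hours after seeding and 800000 cells per well. All the cells received medium conditioned by cancer cells, which in 3 libraries held its lipids and in 3 lacked them. No condition without cancer cell medium is described here. Not given in the sources used here are the cancer line, the method of lipid removal and the hours of exposure. All 10 genes passed the filter on low counts.

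Toll-like receptors are membrane proteins that recognise conserved microbial molecules through a leucine-rich outer domain and signal through an inner TIR domain. Tlr1, Tlr2, Tlr4, Tlr5 and Tlr6 encode receptors of the cell surface for lipopeptides, lipopolysaccharide and flagellin. Tlr3, Tlr7, Tlr8, Tlr9 and Tlr13 encode receptors of endosomes for nucleic acids. Most of the family signals through the adaptor MyD88 to NF-kB and interferon regulatory factors, TLR3 signals through TRIF, and TLR4 uses both.

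The libraries, called lipid replicates 1 to 3 and lipid-free replicates 1 to 3, summed to between 19429022 and 25323053 counts. The most that an observed 0 leaves possible, 3 counts, is 0.118 to 0.154 counts-per-million (CPM) of library totals, which covers counting error only. All other CPM values are scaled by TMM factors. Lipid-free replicate 1 stood apart on the second principal component (21.8% of variance), at -23.8 where the others lay between -1.19 and 14.4, and results that change without it are given both ways. The 8 macrophage markers summed to 28888 to 29275 CPM with lipids and 29272 to 34117 CPM without, mostly from Lyz2 (means 19746 and 22177 CPM). Of them 2 were higher with lipids, Itgam and Fcgr1 (log2 fold changes 0.56 and 0.29), and 1 lower, Cd68 (-0.55). Over all genes tested, 4.58% were higher and 6.87% lower, the shares to set beside this and the marker counts that follow.

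Several defining markers of other immune cells were at or near 0. Siglech, a marker of plasmacytoid dendritic cells, averaged 0.05 CPM in each group, Pax5, Cd3e, Cd8a, Ly6g and Retnlg had 0 counts, and the 6 conventional dendritic cell markers summed to 0.362 to 1.54 CPM. The 6 neutrophil markers summed to 13.1 to 14.5 CPM with lipids and 15.2 to 16.9 CPM without, nearly all from Mmp8, with 0 called, and the 6 B cell markers to 2.53 to 3.07 and 2.65 to 3.44 CPM, mostly from Cd79b and Ebf1. Platelet-type markers moved with the lipids, with 2 of 6 higher, Pf4 and Ppbp, and sums of 416 to 431 CPM against 222 to 258 CPM. The platelet receptor genes Gp9 and Gp1bb averaged at most 0.03 CPM. Of 6 stromal markers 1 was lower, with sums of 119.5 to 127 CPM against 124 to 169 CPM, and of 6 T and NK markers 1, Cd4, with sums of 6.28 to 7.11 against 11.1 to 17.4 CPM. Of the 6 plasmacytoid markers 1, Tcf4, was higher, with sums of 284 to 302 against 253 to 276 CPM. Bst2, the other plasmacytoid marker tested, went the other way without a call (log2 fold change -0.19, edgeR adjusted p = 0.0825). The part of the Pf4 and Ppbp, stromal, Cd4 and Tcf4 signals in the receptor values was not tested.

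With lipids in the medium the macrophages held more Tlr5, Tlr4 and Tlr1 transcript and less Tlr2 transcript, while Tlr6 and the 5 endosomal receptors did not pass the test. Tlr5 was 2.06-fold higher, Tlr4 1.27-fold higher and Tlr1 1.26-fold higher with lipids, and Tlr2 was 1.38-fold higher without them (n = 3 libraries each). Of the 5 surface genes 3 were therefore higher and 1 lower, with a median log2 fold change of 0.34, and of the 5 endosomal genes 0 were called, with a median of 0.06. Over all 12767 genes tested, 11.5% were called (4.58% higher and 6.87% lower) and the median was -0.003. Calls are at an adjusted p of 0.05 from edgeR's quasi-likelihood test. Only 1 surface gene, Tlr5, was higher without lipid replicate 2 or 3 or without lipid-free replicate 2, and 5 receptors, 2 of them endosomal, were higher without lipid-free replicate 1. Without lipid-free replicate 3, 1 endosomal gene was higher. Whether surface and endosomal genes differed as classes was not tested.

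The stretches before the start sites of Tlr5, Tlr1 and Tlr2 are shown because these are the called genes for which a sequence was at hand, and they moved in opposite directions. They come from RefSeq (GRCm38), which gave windows of 250 bases before the start for 8 of the 10 genes. These were 10 windows, since Tlr1 and Tlr6 each have more than 1 start. For Tlr1 the window before the start at 64933558 is shown. Bases inside annotated exons were left out, which for Tlr2 leaves 91 of the 250 bases, and capitals mark matches to the NF-kB and PU.1 motifs described next.
Tlr5, chr1:182954538-182954787, + strand: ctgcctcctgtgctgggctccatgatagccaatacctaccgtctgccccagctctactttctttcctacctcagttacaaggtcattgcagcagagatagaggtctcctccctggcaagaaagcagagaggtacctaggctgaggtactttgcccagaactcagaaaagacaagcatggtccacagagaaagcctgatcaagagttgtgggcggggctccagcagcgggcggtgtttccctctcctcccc
Tlr1, chr5:64933564-64933808, - strand: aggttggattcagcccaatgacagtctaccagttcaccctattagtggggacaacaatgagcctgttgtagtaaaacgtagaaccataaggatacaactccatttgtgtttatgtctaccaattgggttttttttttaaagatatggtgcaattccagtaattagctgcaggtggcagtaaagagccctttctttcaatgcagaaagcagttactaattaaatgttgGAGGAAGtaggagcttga
Tlr2, chr3:83841768-83841858, - strand: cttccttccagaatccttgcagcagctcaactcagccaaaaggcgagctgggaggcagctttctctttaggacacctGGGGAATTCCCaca

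In the Tlr2 window the capitals mark 2 overlapping matches to the NF-kB consensus, a motif found on either strand in 7.25% of the 32851 RefSeq windows of this length. In the printed Tlr1 window they mark the letters GAGGAAG, a motif of the PU.1 type bound by ETS factors of myeloid cells. It was found in 10.6% of windows on either strand. The window before the other Tlr1 start, at 64932699, held no match to any motif searched here. The same letters lay in the windows of Tlr9 and Tlr13, and Tlr3 held 1 NF-kB match. The Tlr5 window held neither motif. Other motifs were also searched on both strands. AGGTCA, a nuclear receptor site in 14.0% of windows, was found for Tlr5, Tlr9 and, in the exonic bases not printed, Tlr2. TGANTCA of AP-1, in 6.75% of windows, was found for Tlr9. The interferon regulatory factor element, in 2.98%, was found for Tlr6 before the start at 64959166 but not before that at 64960048. A match describes these letters only, and binding was not measured.

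All 4 called receptors act at the cell surface. Tlr5 (ENSMUSG00000079164, chr1:182954788-182976044), the receptor for bacterial flagellin, stood at 10.7, 9.03 and 9.59 CPM with lipids and at 4.15, 4.93 and 5.10 CPM without. Every library with lipids lay above every library without. The log2 fold change, with lipids minus without, was 1.04 (SE 0.12, 95% interval 0.77 to 1.31, edgeR adjusted p = 0.000401). Tlr5 was the least abundant of the 10 genes, resting on 205 to 236 counts per library with lipids and 79 to 111 without.

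Tlr4 (ENSMUSG00000039005, chr4:66827584-66930284), which with MD-2 recognises lipopolysaccharide, was at 325, 361 and 347 CPM with lipids and 301, 246 and 268 CPM without. The groups did not overlap, although lipid-free replicate 1 came near the lowest library with lipids. The log2 fold change was 0.34 (SE 0.08, 95% interval 0.17 to 0.51, edgeR adjusted p = 0.0154). Its call was lost when lipid replicate 2 or 3 (edgeR adjusted p = 0.0919 and 0.0676) or lipid-free replicate 2 (0.0751) was left out, and kept in the other 10 of 13 alternative fits.

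Tlr2 (ENSMUSG00000027995, chr3:83836272-83841767), the common partner in lipopeptide receptors, moved the other way. It was at 134, 134 and 145 CPM with lipids and 175, 198 and 195 CPM without, and no library of either group reached the other. Its log2 fold change was -0.46 (SE 0.07, 95% interval -0.61 to -0.32, edgeR adjusted p = 0.00128). Tlr2 and Tlr5 kept their calls in all 13 alternative fits, which changed the scaling, filter, tool or block or left out 1 library.

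TLR1 and TLR6 are the partners that join TLR2, for triacylated and diacylated lipopeptides. Tlr1 (ENSMUSG00000044827, chr5:64924679-64933563) was at 93.0, 90.6 and 96.9 CPM with lipids and 70.7, 68.7 and 82.5 CPM without, with no overlap between groups. Its log2 fold change was 0.34 (SE 0.08, 95% interval 0.17 to 0.51, edgeR adjusted p = 0.0166). The call was lost when lipid replicate 1, 2 or 3 (edgeR adjusted p = 0.0709, 0.0557 and 0.0847) or lipid-free replicate 2 (0.0840) was left out.

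Tlr6 was at 26.4, 25.9 and 29.8 CPM with lipids and 27.3, 28.2 and 28.7 CPM without, so the groups overlapped. Its log2 fold change was -0.04 (95% interval -0.22 to 0.14, edgeR adjusted p = 0.799), and 0.037 with library totals alone. Tlr1 and Tlr6 are neighbours on chromosome 5 with 18467 bases and 0 annotated genes between them. They are near copies in part, since 13.6% of the distinct 50-base stretches of Tlr1 transcripts also occur in Tlr6, so some reads may have been assigned to neither or to the wrong gene.

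**Figure D1:**
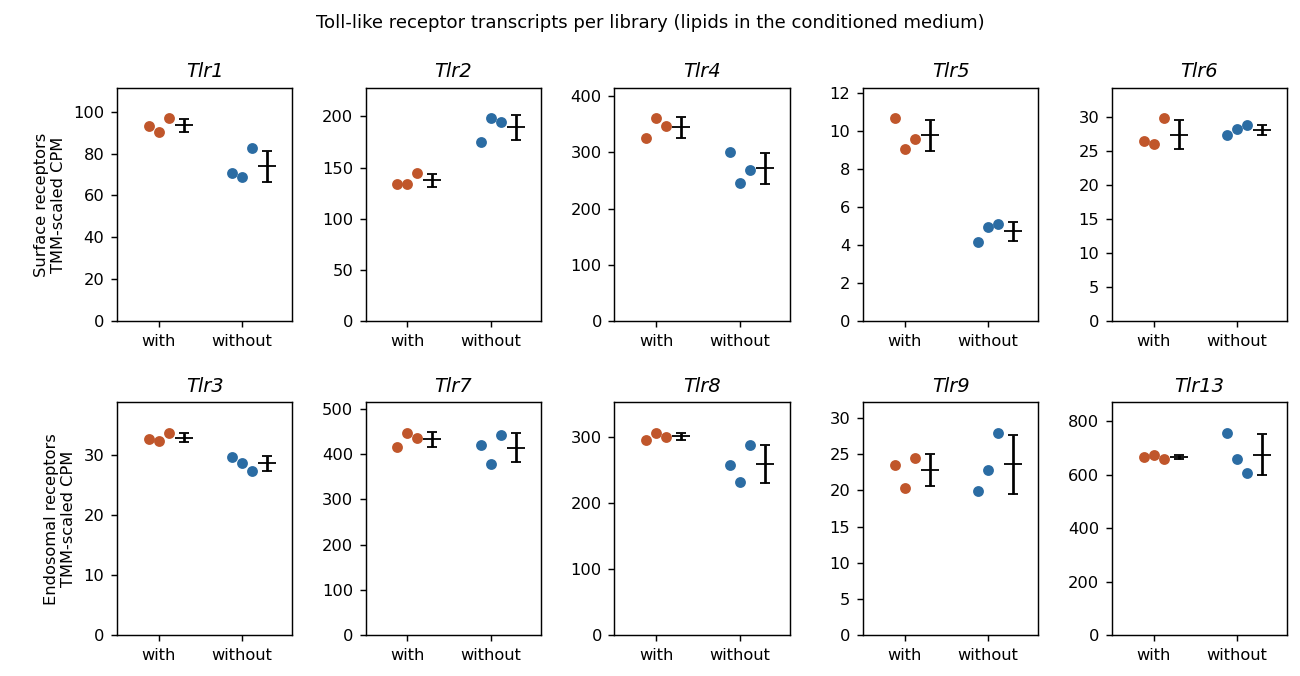
Toll-like receptor transcripts in each library, in TMM-scaled counts-per-million on axes that start at 0, with surface receptors above and endosomal receptors below. Points are the 3 libraries per group and bars are mean ± SD. The groups stand apart for Tlr1, Tlr2, Tlr4, Tlr5, Tlr3 and Tlr8, and overlap for Tlr6, Tlr7, Tlr9 and Tlr13.

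Among endosomal receptors Tlr8 and Tlr3 lay slightly higher with lipids without passing the test. Tlr8, which in the mouse senses RNA fragments, was at 296, 307 and 301 CPM with lipids and 258, 233 and 289 CPM without. Those values did not overlap, but the log2 fold change of 0.21 (SE 0.07, 95% interval 0.05 to 0.38) had an edgeR adjusted p of 0.0931. Tlr3, a sensor of double-stranded RNA, was at 32.6, 32.4 and 33.7 CPM with lipids and 29.8, 28.7 and 27.4 CPM without. Its log2 fold change was 0.20 (SE 0.07, 95% interval 0.04 to 0.36, edgeR adjusted p = 0.0963).

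Absence of overlap was common in these data, at 30.5% of all tested genes (14.7% higher and 15.8% lower with lipids), and was seen for 6 of the 10 receptors, 5 higher and 1 lower. Both Tlr3 and Tlr8 passed when libraries were scaled by totals alone (edgeR adjusted p = 0.0270 and 0.0290) and when lipid-free replicate 1 was left out (0.0170 and 0.0486). Tlr8 also passed without lipid-free replicate 3 (0.0124) and without the filter (0.0186). Tlr3 shares 381 exonic bases with the antisense gene Gm45542, which has no row among the deposited counts. The Tlr3 value is therefore uncertain if counting ignored strand.

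Tlr7, the receptor for single-stranded RNA, was at 415, 446 and 436 CPM with lipids and 419, 379 and 442 CPM without. Its groups overlapped, and the 95% interval of the log2 fold change ran from -0.08 to 0.21 around 0.06 (edgeR adjusted p = 0.585). Tlr9, the receptor for CpG DNA, was at 23.5, 20.3 and 24.5 CPM with lipids and 19.9, 22.9 and 27.9 CPM without. Here the libraries without lipids spanned those with lipids, with a log2 fold change of -0.05 (95% interval -0.33 to 0.22, edgeR adjusted p = 0.819).

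Tlr13, a receptor for bacterial ribosomal RNA, was at 667, 675 and 659 CPM with lipids and 757, 660.5 and 607 CPM without. The log2 fold change was -0.02 (95% interval -0.18 to 0.15, edgeR adjusted p = 0.915), and its spread lay in the libraries without lipids. It was 0.079 without lipid-free replicate 1, and that of Tlr9 was 0.092 without lipid-free replicate 3. For 8 of the 10 genes the SD was larger without lipids than with them. As folds, the 95% intervals ran from 0.945 to 1.16 for Tlr7, from 0.880 to 1.11 for Tlr13 and, more widely, from 0.798 to 1.16 for Tlr9. They cover the spread between these libraries under TMM scaling. They do not cover the choice of scaling, which with totals alone moved the median of all genes to 0.07. In bulk samples fewer cells expressing a gene and less transcript per cell cannot be told apart.

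**Figure D2:**
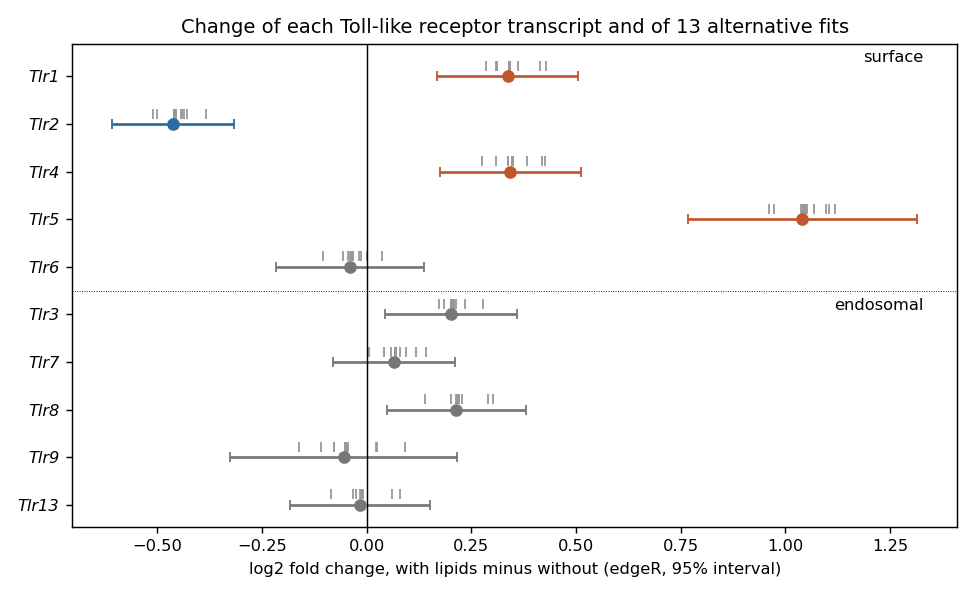
Log2 fold change of each receptor gene (with lipids minus without, edgeR) with its 95% interval, and as ticks the value in each of 13 alternative fits. Genes called higher are orange, genes called lower blue and uncalled genes grey. Tlr5 at 1.04 and Tlr2 at -0.46 stand farthest from 0, and the ticks of Tlr6, Tlr9 and Tlr13 lie on both sides of it.

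Levels of different genes were compared as RPKM, the CPM divided by the kilobases of exon. The endosomal receptor genes Tlr13, Tlr7 and Tlr8 were the most abundant. With lipids the order was Tlr13 at 155 ± 1.9, Tlr7 at 106 ± 4.0, Tlr8 at 84.1 ± 1.5, Tlr4 at 62.0 ± 3.3, Tlr2 at 45.7 ± 2.1 and Tlr1 at 27.9 ± 0.95 RPKM (SD, n = 3). Far below these came Tlr6 at 7.34 ± 0.56, Tlr9 at 6.55 ± 0.63 and Tlr3 at 6.32 ± 0.14 RPKM, whose neighbouring bands of mean ± SD overlapped, and then Tlr5 at 2.04 ± 0.17 RPKM.

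Without lipids Tlr2 stood above Tlr4 in the order. Tlr13 was at 157 ± 17.7, Tlr7 at 101 ± 7.8, Tlr8 at 72.5 ± 7.8, Tlr2 at 62.9 ± 4.1, Tlr4 at 48.9 ± 5.0 and Tlr1 at 22.1 ± 2.2 RPKM, with Tlr8 and Tlr2 overlapping in their bands. Tlr6 at 7.53 ± 0.20, Tlr9 at 6.78 ± 1.16 and Tlr3 at 5.50 ± 0.23 RPKM overlapped as before, and Tlr5 was last at 0.99 ± 0.11 RPKM. The exchange of Tlr2 and Tlr4 depended on the length used: by the longest single transcript Tlr4 was at 66.6 RPKM without lipids, above Tlr2 at 62.9.

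Among tested genes, Tlr13 lay at the 98.3 percentile of RPKM with lipids and Tlr7 at the 97.4, while Tlr5 lay at the 29.1 percentile with lipids and the 19.1 without. The endosomal genes held 71.2 ± 0.59% of the summed RPKM of the family with lipids and 70.6 ± 1.1% without (SD, n = 3 each), and these shares overlapped between groups. Both shares fell by more than their SD with the longest single transcript as length. The summed level of the family was 503 ± 9.2 RPKM with lipids and 485 ± 21 RPKM without, also overlapping. The summed level of the surface genes overlapped too, at 145 ± 4.8 and 142 ± 3.7 RPKM. Of the other mouse receptors of this family, Tlr11 had 0 to 2 counts per library and Tlr12 had 0 in all, below the filter.

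**Figure D3:**
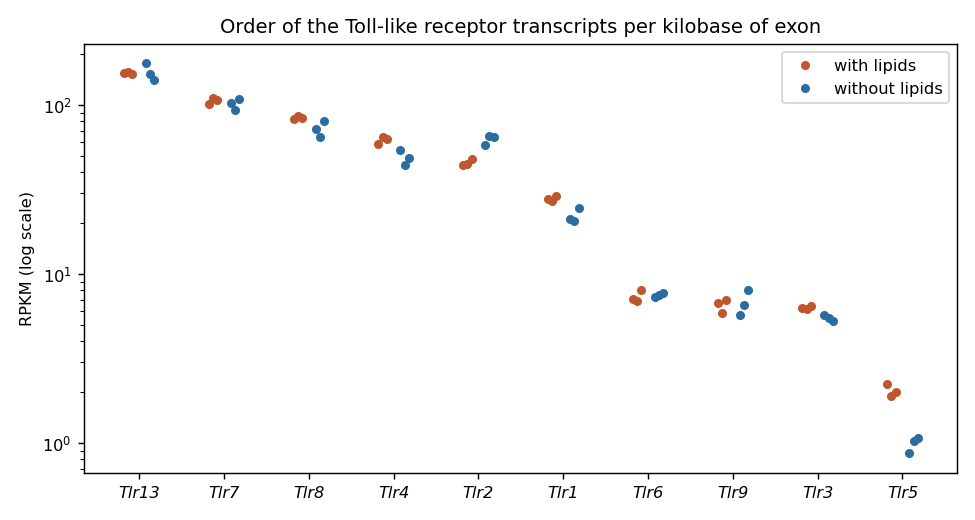
Level of each receptor gene in each library in RPKM, on a log axis, ordered by the mean with lipids. Orange points are libraries with lipids and blue points libraries without. The order runs from Tlr13 at 155 RPKM to Tlr5 at 2.04 RPKM with lipids, and Tlr2 is the gene whose blue points lie above the orange ones without overlap.

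Ratios of partner transcripts within a library do not depend on the scaling between libraries. The ratio of Tlr1 to Tlr2 per length was 0.626, 0.608 and 0.602 with lipids and 0.363, 0.312 and 0.381 without, 1.74-fold higher with lipids. For the other partner, Tlr6 to Tlr2 was 0.160 ± 0.005 with lipids and 0.120 ± 0.006 without (SD, n = 3 each). Between the partners, Tlr1 to Tlr6 was 3.82 ± 0.17 with lipids and 2.93 ± 0.24 without. None of these 3 ratios overlapped between groups, and each was higher with lipids.

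Tlr4 to Tlr2 was likewise higher with lipids, at 1.36 ± 0.09 against 0.783 ± 0.13. Tlr4 to Ly96, which encodes MD-2, was 3.48, 3.62 and 3.90 with lipids and 3.32, 3.08 and 2.60 without, with no overlap. Tlr4 to Cd14, its lipopolysaccharide co-receptor, was 0.260 ± 0.017 and 0.218 ± 0.052 and overlapped. On the X chromosome, where Tlr7 and Tlr8 are neighbours with 40599 bases and 0 annotated genes between them, Tlr7 to Tlr8 was lower with lipids, at 1.26 ± 0.03 against 1.40 ± 0.05. Of 9 such ratios 7 did not overlap, each with an exact permutation p of 0.1 (two-sided, Benjamini-Hochberg adjusted 0.129), the least that 3 against 3 libraries allow, so none could pass the threshold. Each of the 7 holds at least 1 gene whose own groups did not overlap. The ratios are therefore a description and not evidence apart from those genes. How often ratios of other gene pairs fail to overlap was not computed.

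**Figure D4:**
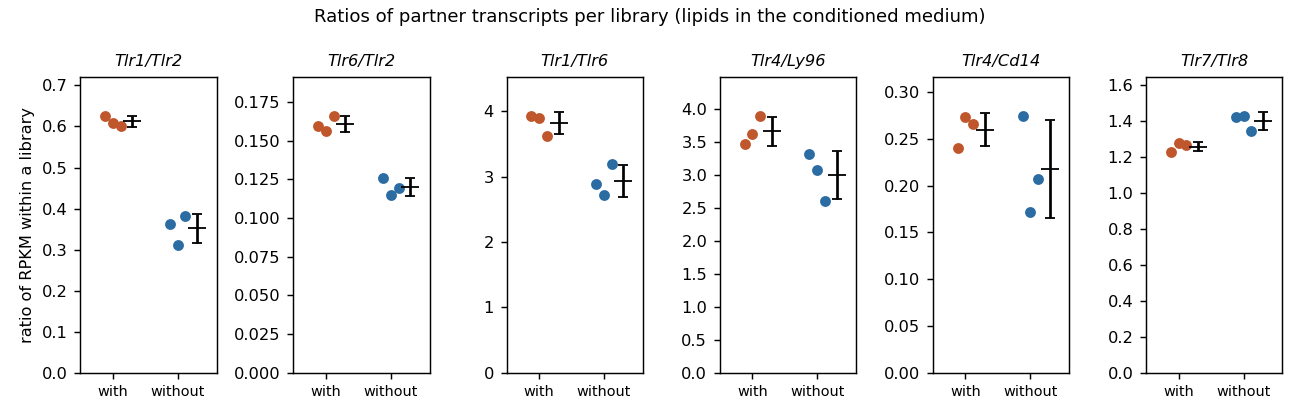
Ratio of the RPKM of 2 partner genes within each library, on axes that start at 0, with 3 libraries per group and bars for mean ± SD. Tlr1/Tlr2, Tlr6/Tlr2, Tlr1/Tlr6 and Tlr4/Ly96 are higher with lipids without overlap, Tlr7/Tlr8 is lower, and Tlr4/Cd14 overlaps.

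Genes that serve the receptors were read from 7 lists with 118 entries, of which 104 were tested, 13 lay below the filter and Tasl was not matched. Of the 104, 4 were higher with lipids and 29 lower, against 4.58% and 6.87% of all genes, with a median log2 fold change of -0.09. With library totals alone the split was 8 higher and 23 lower. Leaving out lipid-free replicate 1 gave 9 and 44. These lists were chosen with earlier results on these samples known and are not independent evidence of their direction.

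Co-receptors and ligand carriers had 1 higher and 2 lower of 6 tested genes (median 0.04). The higher and the lower gene with the smallest p encode partners of 1 complex, a regulator of lipopolysaccharide responses in B cells and myeloid cells. Ly86, encoding MD-1, was at 119.9 ± 1.7 CPM with lipids and 89.1 ± 10.1 without, and changed by 0.43 on the log2 scale (SE 0.08, edgeR adjusted p = 0.00532). Cd180, encoding the receptor RP105 that MD-1 binds, was at 339.7 ± 11.3 CPM with lipids and 447 ± 54.5 without, a change of -0.40 (SE 0.08, edgeR adjusted p = 0.00966). The call for Cd180 was lost without lipid replicate 1 or 3 (edgeR adjusted p = 0.0508 and 0.0561).

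The lipopolysaccharide co-receptor genes Cd14 and Ly96 did not pass, at 0.06 (95% interval -0.13 to 0.25) and 0.05 (95% interval -0.19 to 0.28). Grn, whose product progranulin can carry CpG DNA to TLR9, was lower at -0.25 (edgeR adjusted p = 0.0322). Scaling by totals alone ended that call (edgeR adjusted p = 0.0946), as did leaving out any 1 library except lipid-free replicate 1 (0.0539 to 0.174). The list then had 0 lower genes without lipid replicate 1 or 3, and 1 without lipid replicate 2 or lipid-free replicate 2 or 3.

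Chaperones and trafficking genes had 2 higher and 3 lower of 13 (median -0.05). Unc93b1, the carrier of nucleic acid-sensing receptors to endosomes, did not pass at -0.18 (95% interval -0.44 to 0.08), and its libraries without lipids were spread from 403 to 595 CPM. Rab11a, a GTPase of recycling endosomes, was higher at 0.36 and Cnpy4, a chaperone-like partner of surface receptors, at 0.33 (edgeR adjusted p = 0.00333 and 0.0068). Lower were the lysosomal transporters Slc15a3 at -0.50 and Slc29a3 at -0.46 and the GTPase Rab7b at -0.26, with edgeR adjusted p-values of 0.00215, 0.000687 and 0.0122. Leaving out lipid-free replicate 1 made 5 genes of the list lower. Rab7b lost its call when scaled by totals alone (edgeR adjusted p = 0.0523) and when any lipid replicate or lipid-free replicate 2 was left out (0.0561 to 0.0770).

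Endolysosomal proteases and nucleases, which trim the nucleic acid-sensing receptors or digest their ligands, had 0 higher and 5 lower of 10 (median -0.31). Ctsb and Ctss, cathepsins that cleave receptor ectodomains, changed by -0.53 each (edgeR adjusted p = 0.000319 and 0.000807). Pld3, an exonuclease that removes single-stranded DNA, changed by -0.77 (edgeR adjusted p = 0.000626). The cathepsin gene Ctsk at -0.90 and the lysosomal nuclease gene Dnase2a at -0.37 were the others, named after their values were seen. Leaving out lipid-free replicate 1 made 1 gene of the list higher.

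Among adaptors, kinases and ligases the calls were near the share over all genes (11.5%). Of 24 tested 1 was higher, Myd88 at 0.32 (edgeR adjusted p = 0.00706), and 2 were lower, the kinase Irak2 at -0.59 (0.00111) and the ligase Traf3 at -0.31 (0.0387), with a median of 0.02. Myd88 shares 290 exonic bases with Acaa1a on the other strand, so its value is uncertain if counting ignored strand. The same limit holds for other called genes, among them those that follow. Dnase2a shares 1616 such bases with Mast1, Slc15a3 1541 with Tmem132a, Ctsb 774 with Fdft1 and Cd180 182 with Mast4. These opposite genes held 67, 927, 7645 and 817 counts in all, against 9449 for Acaa1a. Jun shares 232 such bases with Junos, Irak2 196 with Gm43963 and Grn 68 with Fam171a2. Those opposite genes held 100, 22 and 30 counts. Traf3 lost its call when scaled by totals alone (edgeR adjusted p = 0.0868) and when any lipid replicate or lipid-free replicate 2 was left out (0.122 to 0.158), which brought the lower count to 1. Counts for this list were 3 higher and 6 lower without lipid-free replicate 1, and 2 were higher without lipid-free replicate 3.

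Negative regulators, many of them NF-kB targets themselves, had 0 higher and 5 lower of 17 (median -0.06). Tnfaip3, encoding the deubiquitinase A20, changed by -0.95, its partner Tnip1 by -0.73 and the NF-kB inhibitor Nfkbia by -0.53 (edgeR adjusted p = 6.29e-05, 0.000398 and 0.00371). Zc3h12a at -0.43 and Tollip at -0.24 were the others. That count was 3 without lipid replicate 1 or 2 or lipid-free replicate 2. Among 14 transcription factors 0 were higher and 2 lower, Jun at -0.49 and Relb at -0.43 (edgeR adjusted p = 0.0053 and 0.0477), with a median of -0.17. The calls among transcription factors were near the share over all genes (11.5%). Relb lost its call when scaled by totals alone, with the 1 CPM filter and with limma-voom (adjusted p = 0.0751, 0.0516 and 0.0604). Leaving out lipid-free replicate 1 gave 8 lower, and leaving out any other library gave 1, with Relb lost each time (edgeR adjusted p = 0.0848 to 0.199).

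Genes that the pathway induces had 0 higher and 10 lower of 20 tested (median -0.48), and 8 lay below the filter, among them Il6, Il12b and Ifnb1. Called or not, 14 of the 20 had negative log2 fold changes and 6 positive ones. Among the 6 were Ptgs2 at 0.52 and Il10 at 0.38 (edgeR adjusted p = 0.129 and 0.0519). Acod1, which makes itaconate, was at 4.18 ± 1.22 CPM with lipids and 15.4 ± 2.2 without, changing by -1.89 (SE 0.18, edgeR adjusted p = 9.74e-05). Sod2 changed by -0.51 and Clec4e, the receptor Mincle, by -0.75 (edgeR adjusted p = 0.000547 and 0.000933). Acod1, Sod2 and Clec4e were picked by smallest p. Groups did not overlap for 12 of the 20 tested genes, against 30.5% of all genes tested. Leaving out lipid-free replicate 1 also made 1 gene of the list higher.

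**Figure D5:**
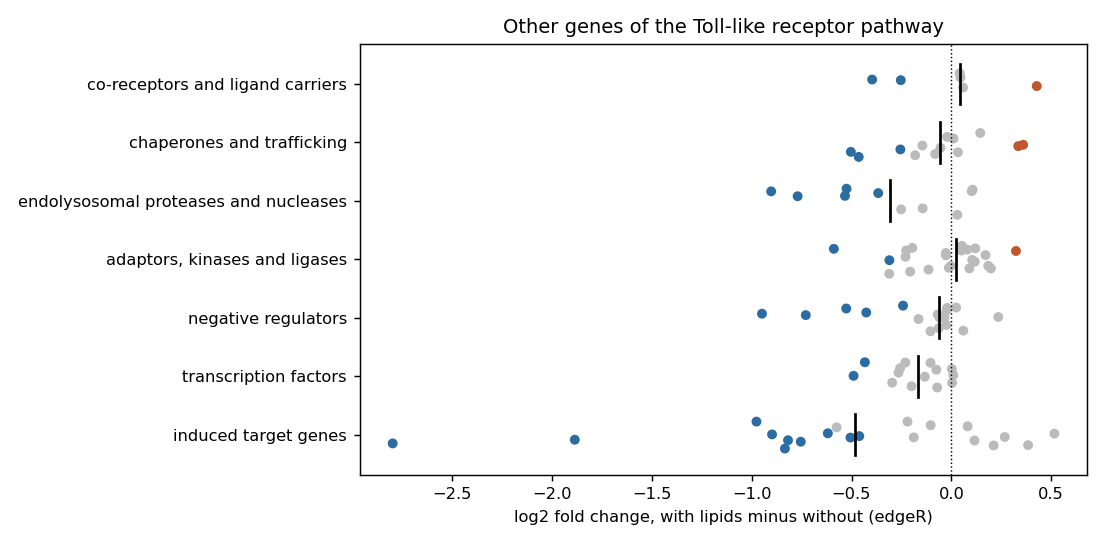
Log2 fold change (with lipids minus without, edgeR) of the tested genes in 7 lists of the Toll-like receptor pathway, with 1 point per gene and a vertical line at each list's median. Orange points were called higher, blue points lower and grey points neither. The medians run from -0.48 for induced target genes to 0.04 for co-receptors.

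By correlation of log2 CPM over the 6 libraries, the protein-coding genes outside the family most like Tlr5, among 9476 with at least 5 CPM, were Itsn1 (r = 0.9996), Rnf145 (0.998) and Il10 (0.994). Itsn1, an endocytic scaffold gene, was at 370 ± 10.9 CPM with lipids and 285 ± 12.9 without, and Rnf145, a ubiquitin ligase gene, at 69.2 ± 1.5 and 57.0 ± 2.0 CPM. Il10, the anti-inflammatory cytokine gene, was at 6.74 ± 0.32 and 5.16 ± 0.23 CPM (edgeR adjusted p = 0.0519). The points share libraries and the difference between groups, so these values are a description.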

How the data were processed

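Bulk RNA sequencing measured poly(A) transcripts in 6 libraries, 3 with and 3 without lipids, grouped by sample title. The authors deposited raw counts per Ensembl gene. TopHat2 2.1.0, HTSeq, DESeq2 and GRCm38.p4 are named, without roles, per the submitters' processing notes. Strand setting and annotation release were not given in the sources used here. Names, coordinates and exon lengths came from GENCODE M21 (GRCm38), where 46005 of 46603 identifiers matched. Unmatched ones held 0.161% to 0.178% of counts.

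The test was that of edgeR 4.0.16 (R 4.3.3), with filterByExpr (minimum count 10, minimum total 15), TMM factors, a two-sided quasi-likelihood F test and Benjamini-Hochberg adjustment over 12767 genes, threshold 0.05. CPM values are TMM-scaled and RPKM divides them by the union exon length. SE and 95% intervals come from the F test. Exact permutation tests used SciPy 1.17.1. The steps were tested on simulated counts, with 50 genes changed at each size. Recovered were 16% of 1.25-fold, 74% of 1.5-fold, 92% of 2-fold and 100% of 4-fold changes, with 13 false calls among 154. Libraries of a group differed beyond sampling noise (chi-square). They are not said to be separate cultures or mice, so p-values, SE and intervals may measure technical spread.

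The receptors and lists were chosen with earlier results of these data known. All 10 receptors are named, and of each list up to 3 called genes per direction, by smallest p, and the 3 genes most correlated with the called surface gene of smallest p; 0 endosomal genes were called. Other genes of the lists were named after their values were seen. Alternatives were median-of-ratios scaling, library totals alone, no filter, 1 CPM in 3 libraries, DESeq2 1.42.0, limma-voom (limma 3.58.1), the replicate number as a block, each library left out, and the longest transcript as length.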

Additional observations from a re-analysis of the deposited data

How the results depend on the processing

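Tlr2 and Tlr5 kept direction and call in all 13 alternative fits, Tlr4 in 10 and Tlr1 in 9, and no alternative called Tlr6, Tlr7, Tlr9 or Tlr13. Directions turned only for uncalled genes. With library totals alone, which moved the median of all genes to 0.07, log2 fold changes were 0.037 for Tlr6, 0.022 for Tlr9 and 0.059 for Tlr13. With 1 library left out, Tlr9 ran from -0.16 (lipid-free replicate 1) to 0.092 (lipid-free replicate 3) and Tlr13 from -0.085 (lipid-free replicate 3) to 0.079 (lipid-free replicate 1). The cause was not tested.

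Counts that moved by over 1.5 times were these. With library totals alone 5 receptors were higher, 2 of them endosomal, as were 8 pathway genes and 1241 of all genes. Adaptors, kinases and ligases then had 3 higher and 1 lower, co-receptors 1 lower, negative regulators 3 lower, transcription factors 1 lower and induced targets 1 higher. Without the filter 1 endosomal receptor, 1 induced target and 1009 of all genes were higher, and 4 adaptors, kinases and ligases and 5 transcription factors were lower. Induced targets had 1 higher with median-of-ratios scaling and with 1 CPM in 3 libraries, and transcription factors 1 lower with that filter and with limma-voom.

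With each of the 6 libraries left out in turn, 1 to 5 receptors were higher (1 to 3 surface, 0 to 2 endosomal) and 1 lower. Higher pathway genes numbered 4 to 9 and lower ones 22 to 44. Lower co-receptors numbered 0 to 2, trafficking genes 2 to 5, negative regulators 3 to 6 and transcription factors 1 to 8. Adaptors, kinases and ligases had 1 to 3 higher and 1 to 6 lower, and 0 to 1 endolysosomal gene and 0 to 1 induced target were higher. Of all genes 219 to 1566 were higher and 423 to 1975 lower, the highest without lipid-free replicate 1.

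With the longest single transcript as length, RPKM with and without lipids became 30.9 and 24.4 for Tlr1, 84.5 and 66.6 for Tlr4, 2.56 and 1.24 for Tlr5 and 7.47 and 6.49 for Tlr3, and with lipids 111 for Tlr7, 87.9 for Tlr8 and 164 for Tlr13. The endosomal share of the summed RPKM then fell by more than its SD in both groups. Same-numbered libraries deviated together with correlations of -0.01, -0.08 and 0.17, and not every library correlated best with its own number. The labels give no pairing. With the replicate block 3 receptors were higher and 1 lower, and 715 and 937 of all genes. Depth limits Tlr5 most, with 79 to 236 counts per library.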
